A study of Mus musculus with 12 samples.

Results

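Apol6, Apol8, Apol9a and Apol9b, members of the mouse apolipoprotein L family, and Ubd, which encodes the ubiquitin-like modifier FAT10, were followed across MC38 cells, a mouse colorectal carcinoma line. The 5 genes were chosen by name from the 51826 genes of the expression tables, on account of how they behaved in these same libraries, so that their levels and fold changes are given as a description with no test. All 5 were among the 16676 genes that passed the filter on low counts. Poly-A RNA was sequenced as 150 bp read pairs from 12 samples in 4 groups of 3 libraries: Smarcd1 knockout cells with IFN, Smarcd1 knockout cells without treatment, wild-type (WT) cells with IFN, and untreated WT cells. Knockout was directed by an sgRNA against Smarcd1, whose product belongs to the chromatin remodelling complexes of the SWI/SNF (BAF) type. The kind of interferon, its dose and its duration, the number of knockout clones, and whether the WT cells carried a control guide are not stated in the labels. The labels also do not say whether the libraries of a group came from separate cultures, so the p-values below measure only the spread between these samples.

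Apolipoprotein L proteins are lipid-binding proteins, most of which act inside the cell; in humans, APOL1 is secreted and lyses trypanosomes, and APOL6 has been linked to cell death. Many genes of the family are induced by interferons, and the mouse Apol9 proteins have been linked to restriction of viruses. FAT10 is joined to other proteins by the enzymes encoded by Uba6 and Ube2z and directs them to the proteasome, and its gene responds to inflammatory cytokines. Interferons act through STAT and IRF transcription factors, which bind the interferon-stimulated response element (ISRE) and the gamma-activated site (GAS).

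Before the results, the labels were checked. In 6 libraries the characteristics go against the sample titles and exchange WT cells with IFN for untreated knockout cells; the titles and the short sample codes were followed. Smarcd1 (ENSMUSG00000023018) had 59.8 ± 0.968 CPM (counts scaled to library size, mean ± SD, n = 3) in knockout cells with IFN and 51.5 ± 3.04 CPM in knockout cells without IFN, against 103 ± 18.7 CPM in WT cells with IFN and 90.9 ± 13.1 CPM in untreated WT cells. Its log2 fold change in knockout over WT cells was -0.79 in the presence of IFN (edgeR adjusted p = 0.00109) and -0.82 in its absence (adjusted p = 0.000814), and grouping by the characteristics turned both to 0.22 (adjusted p = 0.314) and 0.18 (adjusted p = 0.433). Under that grouping the values given here for IFN in WT cells and for the knockout without IFN change places, as do those for IFN in knockout cells and for the knockout with IFN; the interaction is identical. Knockout libraries held 37270418 to 45721356 counts and WT libraries 31752685 to 36394538, so every knockout library was the deeper. Raw counts given below are not scaled for this. Epithelial markers were low, and they were mixed with regard to the carcinoma label. TPM is a level per transcript length, scaled to a fixed total per library. The defining marker Epcam was at 0 in all 12 libraries. Cdh1 was detected, at mean levels of 0.713 and 2.15 TPM in knockout cells with and without IFN and 0.692 and 1.89 TPM in WT cells with and without IFN. In the same order Krt19 had 0.0408, 0.784, 0.0841 and 2.18 TPM. Group means of Krt8, Krt18 and Vil1 were at most 0.282 TPM. The 6 markers summed to 0.648 to 1.13 TPM in knockout cells with IFN and 2.59 to 3.71 TPM in untreated knockout cells. In WT cells they summed to 1.11 to 1.19 TPM with IFN and 4.28 to 4.74 TPM without.

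The 4 Apol genes lie in 1 cluster on chromosome 15 and Ubd on chromosome 17 (GRCm38, GENCODE M21). Apol6 (ENSMUSG00000033576) runs from 77044729 to 77057106, Apol9a (ENSMUSG00000057346) from 77403789 to 77411135, Apol9b (ENSMUSG00000068246) from 77729039 to 77736382, Apol8 (ENSMUSG00000056656) from 77747798 to 77757003 and Ubd (ENSMUSG00000035186) from 37193892 to 37196095. RefSeq promoter windows of build GRCm38.p6, which span 250 bases before to 50 after an annotated start, matched 4 of the 5 genes by symbol. Those of Apol9a and Apol9b are printed because they hold motif matches, and that of Ubd because its gene behaved differently from these. That of Apol10b is printed because this relative is compared with Ubd below. They read 5′ to 3′ along the gene, with capitals marking the motif matches described next.
Apol9a (chr15:77411031-77411330, minus strand): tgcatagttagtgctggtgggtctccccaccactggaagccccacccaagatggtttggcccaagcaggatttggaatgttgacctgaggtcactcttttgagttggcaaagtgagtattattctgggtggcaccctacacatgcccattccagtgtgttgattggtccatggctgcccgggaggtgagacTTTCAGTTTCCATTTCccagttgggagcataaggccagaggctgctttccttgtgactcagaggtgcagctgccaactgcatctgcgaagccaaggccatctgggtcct
Apol9b (chr15:77728822-77729121, plus strand): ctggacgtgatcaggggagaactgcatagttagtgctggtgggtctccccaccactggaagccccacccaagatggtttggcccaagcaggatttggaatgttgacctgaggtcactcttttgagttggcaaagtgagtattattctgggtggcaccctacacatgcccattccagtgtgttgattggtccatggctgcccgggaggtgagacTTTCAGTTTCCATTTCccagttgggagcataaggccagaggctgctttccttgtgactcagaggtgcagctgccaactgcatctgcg
Ubd (chr17:37193642-37193941, plus strand): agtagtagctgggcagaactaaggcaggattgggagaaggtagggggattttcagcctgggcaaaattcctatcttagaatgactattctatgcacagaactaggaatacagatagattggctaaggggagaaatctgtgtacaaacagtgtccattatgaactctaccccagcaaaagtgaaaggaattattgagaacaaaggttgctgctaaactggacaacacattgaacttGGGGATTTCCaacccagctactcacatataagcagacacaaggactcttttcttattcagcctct
Apol10b (chr15:77596076-77596375, minus strand): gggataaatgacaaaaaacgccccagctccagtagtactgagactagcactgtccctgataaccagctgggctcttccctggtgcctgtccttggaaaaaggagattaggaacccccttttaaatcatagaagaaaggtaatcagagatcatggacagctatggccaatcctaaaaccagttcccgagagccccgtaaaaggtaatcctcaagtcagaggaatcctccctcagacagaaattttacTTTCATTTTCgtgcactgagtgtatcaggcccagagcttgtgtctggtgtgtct

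The Apol9a and Apol9b windows were identical over all 278 bases that they share, offset by 22 bases because their annotated starts differ. Each held the same 16-base run, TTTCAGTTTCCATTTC, from -59 in Apol9a and from -37 in Apol9b. RefSeq annotates 2 starts for each gene, and in the windows of the other starts, not printed, the run begins at -105 in Apol9a and at -86 in Apol9b. The run contains 2 overlapping ISRE matches (GAAA, any 2 bases, GAAA, searched on both strands), both on the strand opposite to the gene, so that 3 half-sites stand in a row. An ISRE match occurred in 3.44% of all 32851 promoter windows of this length, and 3 GAAA half-sites in a row, each 2 bases apart (a spelling added after the overlap had been seen) in 0.116%, or 38 windows. Among the other Apol genes, Apol7e held the run TTTCTCTTTCGTTTTC from -36 and Apol7c the run TTTCTCTTTCCTTTTC from -55. Single ISRE matches lay in Apol10b, from -4 and across the annotated start, in Apol10a, from -51, and in Apol11a and Apol11b, from -50 in both. Apol10a, Apol11a and Apol11b each also held 1 GAS match from -241, and Apold1 held 1 from -83, while Apol7a and Apol7b held neither motif. The windows of Ubd and Apol8 held no match to the ISRE, to GAS (TTCNNNGAA, in 8.3% of windows), to the kB motif bound by NF-kB (GGGA, any 2 bases, TTCC, 1.47%) or to the E-box (CACGTG, 7.15%). A further kB spelling, the 10 bases in capitals in the Ubd window, was added after the windows had been read. It starts at -15 in Ubd and occurred in 32 windows, 0.0974% of all. Because it was chosen with the Ubd window in view, its match there is no support for a kB site. These matches are of letters only and show no binding.

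**Figure D1:**
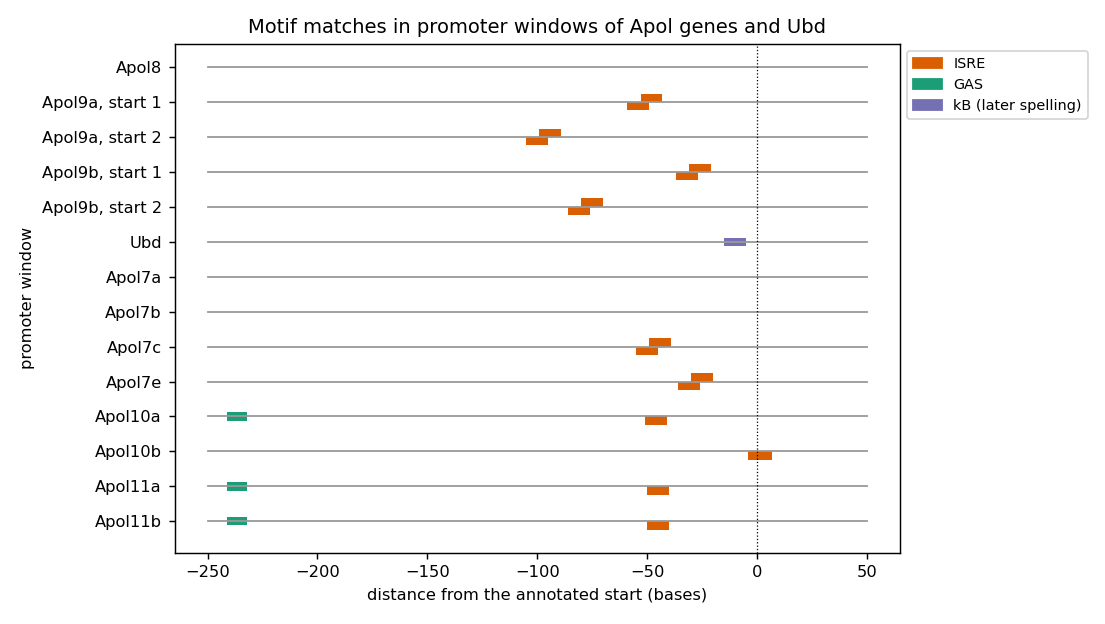
Matches to the ISRE, GAS and kB spellings in the promoter windows of Apol genes and Ubd, against distance from the annotated start in bases; each line is 1 window and each block 1 match. The paired ISRE blocks of Apol9a and Apol9b recur in Apol7c and Apol7e, and Ubd holds only the kB spelling that was added later.

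The genes followed different patterns. Apol9a and Apol9b were abundant, differed between genotypes and lay close together with and without IFN; Ubd differed with IFN and not between genotypes beyond its spread; Apol6 differed with both; Apol8 stayed low.

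**Figure D2:**
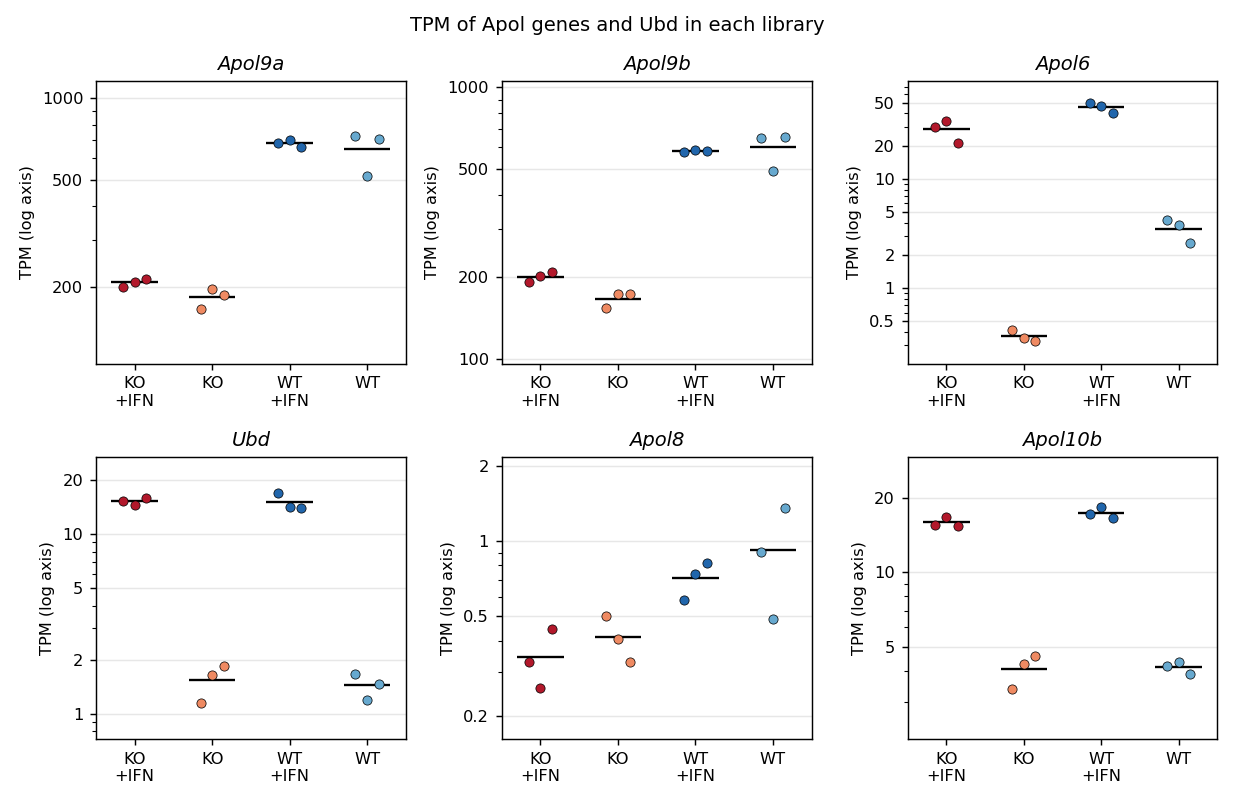
TPM on a log axis for the 5 genes and Apol10b in each of 12 libraries; points are libraries, bars are group means (n = 3), and KO is the Smarcd1 knockout. Apol9a and Apol9b separate by genotype, Ubd and Apol10b by IFN, and Apol6 by both.

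Apol9a and Apol9b encode near-identical proteins. Apol9a had 201, 210 and 215 TPM in knockout cells with IFN and 167, 197 and 187 TPM in untreated knockout cells, against 686, 701 and 662 TPM in WT cells with IFN and 724, 518 and 707 TPM in untreated WT cells. Apol9b had 192, 203 and 209 TPM in knockout cells with IFN and 154, 174 and 173 TPM in untreated knockout cells, against 577, 588 and 583 TPM in WT cells with IFN and 652, 492 and 658 TPM in untreated WT cells. For both genes all 6 knockout libraries lay below all 6 WT libraries, and replicate 2 of the untreated WT cells was the lowest WT library. By mean TPM, Apol9a ranked 891 among the 16676 genes in untreated knockout cells and 199 in untreated WT cells, and Apol9b ranked 992 in untreated knockout cells and 217 in untreated WT cells.

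The log2 fold change of knockout over WT cells without IFN was -1.84 ± 0.11 (± SE throughout for fold changes) for Apol9a and -1.86 ± 0.10 for Apol9b; without replicate 2 of the untreated WT cells it was -1.97 and -1.98. With IFN it was -1.72 ± 0.11 for Apol9a and -1.55 ± 0.10 for Apol9b. As a ratio of mean CPM, knockout cells held 0.303 of the WT level of Apol9a with IFN and 0.279 without it, and of Apol9b they held 0.343 with IFN and 0.275 without it. IFN over no IFN gave 0.23 ± 0.11 for Apol9a and 0.31 ± 0.10 for Apol9b in knockout cells. The libraries with and without IFN did not overlap there, but neither gene was past the edgeR threshold used below. In WT cells IFN gave 0.11 ± 0.11 and -0.01 ± 0.10, and the libraries overlapped. Without replicate 2 of the untreated WT cells, the lowest, the values were -0.03 and -0.13. Here and elsewhere, the share of all genes whose libraries do not overlap was not counted, so such separation is only a description.

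Less RNA of a gene in a bulk sample can come from fewer cells or from less RNA per cell, which cannot be told apart here. Immune cells can express these genes, so 10 immune markers were examined. They summed to 0.922 to 2 TPM in knockout cells with IFN and 0.701 to 1.36 TPM in untreated knockout cells, against 4.8 to 5.83 TPM in WT cells with IFN and 4.97 to 5.78 TPM in untreated WT cells, so this sum moved with genotype as Apol9a and Apol9b did. Most of it was Cd74, the MHC class II invariant chain, at 1.09 ± 0.5 TPM in knockout cells with IFN and 0.71 ± 0.312 TPM in untreated knockout cells, against 4.87 ± 0.309 TPM in WT cells with IFN and 5.01 ± 0.542 TPM in untreated WT cells. The defining markers Cd3e (T cells), Adgre1 (macrophages) and Nkg7 (NK cells) were at 0 in all 4 groups, but others of the list were detected. Ptprc had 6 and 4 summed counts in knockout cells with and without IFN, and 10 and 27 in WT cells with and without IFN. In the same order Csf1r had 6, 20, 29 and 32 counts. Cd79a had 25, 31, 24 and 11, lowest in untreated WT cells. The 4 endothelial markers summed to 1.01 to 1.94 TPM in knockout cells with IFN and 1.1 to 2.37 TPM in untreated knockout cells, against 1.81 to 4.16 TPM in WT cells with IFN and 1.99 to 2.1 TPM in untreated WT cells. The part of such cells in the result was not tested.

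Apol9a and Apol9b cannot be separated fully by short reads. Their coding sequences of 930 bases differ at 14 positions (98.5% identical), and the proteins differ at 10 of 310 residues. Of 781 coding windows of 150 bases, 297 (38%) were identical between the genes, and over whole transcripts 7.1% of the windows of Apol9a and 22.5% of those of Apol9b were shared. Apol6, Apol8 and Ubd shared no such window with any other gene of the family, and Apol6 was 64.2% identical to Apol9a over its aligned coding bases. How reads that fit both genes were assigned is not given in the sources used here, so the split between Apol9a and Apol9b is uncertain, whereas their sum is less so. The sum was 410 ± 15.3 TPM in knockout cells with IFN and 351 ± 26.7 TPM in untreated knockout cells, against 1265 ± 22.6 TPM in WT cells with IFN and 1250 ± 208 TPM in untreated WT cells (SD, n = 3 each).

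With that limit, the ratio of Apol9a to Apol9b counts stayed near 1. It was 1.002 ± 0.008 in knockout cells with IFN and 1.060 ± 0.030 in untreated knockout cells, against 1.132 ± 0.032 in WT cells with IFN and 1.044 ± 0.028 in untreated WT cells. The ratio was lower with IFN in knockout cells and higher with IFN in WT cells, and in neither genotype did the libraries with and without IFN overlap. By permutation of libraries p was 0.1 in each genotype, the smallest value possible at this group size (adjusted p = 0.133). Neither difference passed, and groups of this size could not have passed. Between untreated knockout and untreated WT cells the ratios overlapped.

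**Figure D3:**
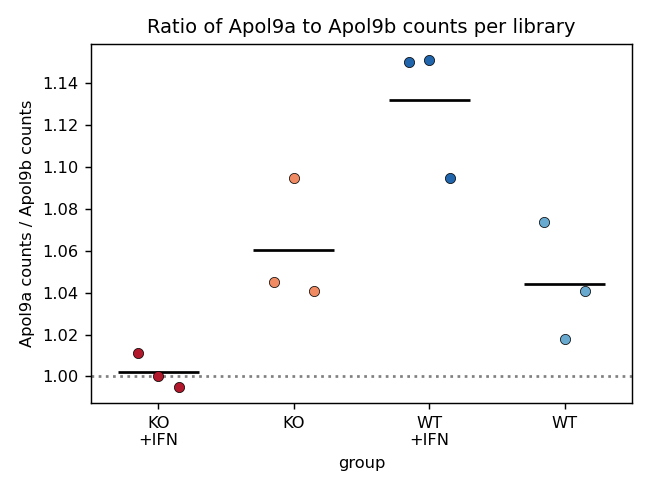
Ratio of Apol9a to Apol9b counts in each library (points) with group means (bars, n = 3); the dotted line marks equal counts and the axis does not start at 0. The 3 knockout libraries with IFN lie between 0.995 and 1.011, and the 3 WT libraries with IFN between 1.095 and 1.151.

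Apol6 differed both with IFN and between genotypes. It had 30.3, 34.1 and 21.6 TPM in knockout cells with IFN and 0.42, 0.348 and 0.327 TPM in untreated knockout cells, against 49.4, 47 and 40.2 TPM in WT cells with IFN and 4.2, 3.77 and 2.61 TPM in untreated WT cells. The 4 groups did not overlap in any pair examined, and their means ran from untreated knockout cells through untreated WT cells and knockout cells with IFN to WT cells with IFN. The untreated knockout level rests on 15, 14 and 16 counts, above the 3 counts taken as the floor of a library.

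IFN over no IFN gave a log2 fold change of 5.89 ± 0.28 for Apol6 in knockout cells and 3.39 ± 0.23 in WT cells, which as ratios of mean CPM are 59.9 and 10.5. Between genotypes the value was -0.63 ± 0.20 with IFN and -3.13 ± 0.28 without IFN (knockout over WT). The IFN effect was thus 2.50 ± 0.35 larger in knockout cells on the log2 scale, although the level reached with IFN was the lower one: 20.9 ± 5.12 CPM in knockout cells and 32.4 ± 3.15 CPM in WT cells. Replicate 3 of the knockout cells with IFN was the lowest of its group; without it the difference between genotypes with IFN was -0.45. Of the exonic bases of Apol6, 1.42% overlap Mb on the opposite strand.

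Ubd had 15.3, 14.5 and 16 TPM in knockout cells with IFN and 1.15, 1.65 and 1.84 TPM in untreated knockout cells, against 16.9, 14.2 and 14 TPM in WT cells with IFN and 1.67, 1.19 and 1.46 TPM in untreated WT cells. The libraries with and without IFN were apart in both genotypes, and knockout and WT libraries overlapped both with and without IFN. The log2 fold change with IFN was 3.31 ± 0.18 in knockout cells and 3.38 ± 0.18 in WT cells, ratios of mean CPM of 10 and 10.5. The knockout over WT value was 0.01 ± 0.15 with IFN and 0.07 ± 0.20 without IFN. The difference between the IFN effects was -0.07 ± 0.25, so its error spans differences of either sign. Untreated levels rest on 22 to 39 counts a library in knockout cells and 20 to 27 in WT cells.

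Apol8 was low throughout; by mean TPM it was the lowest of the genes except in untreated knockout cells, where Apol6 was lower. It had 0.329, 0.258 and 0.447 TPM in knockout cells with IFN and 0.502, 0.406 and 0.33 TPM in untreated knockout cells, against 0.583, 0.741 and 0.818 TPM in WT cells with IFN and 0.908, 0.487 and 1.36 TPM in untreated WT cells. Knockout and WT libraries were apart with IFN and overlapped without it, and libraries with and without IFN overlapped in both genotypes. Knockout over WT gave -0.97 ± 0.34 with IFN and -0.96 ± 0.32 without IFN, and IFN gave -0.40 ± 0.34 in knockout cells and -0.39 ± 0.31 in WT cells. At 12 to 40 counts a library these differences carry wide errors.

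**Figure D4:**
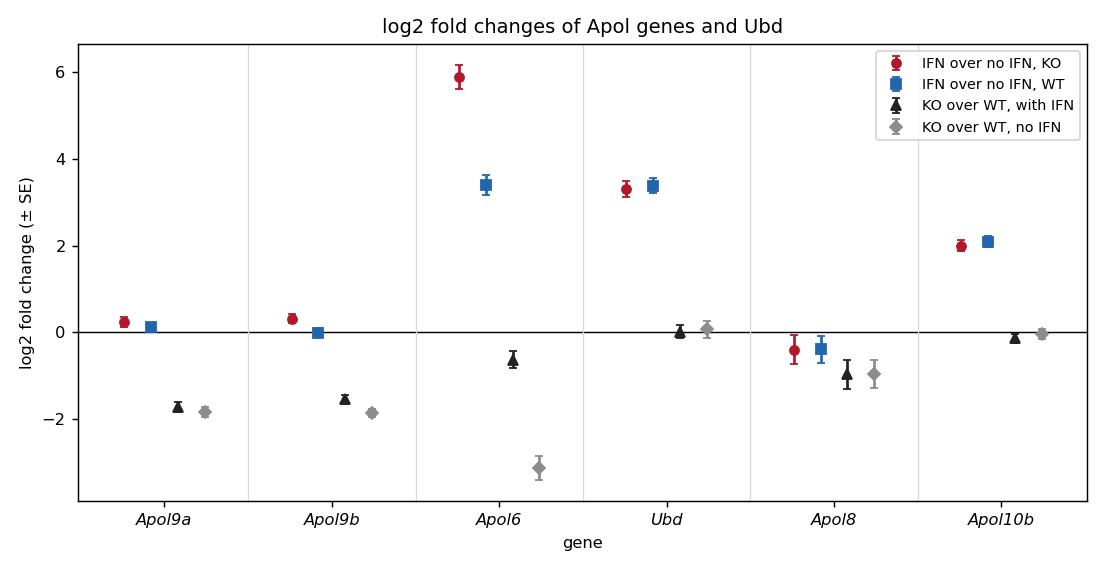
log2 fold changes (points) with standard errors (bars) of the 5 genes and Apol10b in 4 comparisons of 3 against 3 libraries; KO is the Smarcd1 knockout. Apol6 has the largest IFN value, 5.89 in knockout cells, and Apol9a and Apol9b lie below 0 in both knockout comparisons.

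The same fit, with Benjamini-Hochberg adjustment over all 16676 genes and a threshold of 0.05, places these values among the rest. With IFN in knockout cells, 2 of the 5 genes (Apol6 and Ubd) were past the threshold and higher, beside 5.47% of all genes called higher and 7.28% called lower. With IFN in WT cells the same 2 were higher, beside 4.66% of all genes called higher and 4.72% lower. In knockout against WT cells with IFN, 2 (Apol9a and Apol9b) were lower, beside 10.6% of all genes called lower and 5.11% higher. In untreated knockout against WT cells, 3 (Apol6, Apol9a and Apol9b) were lower, beside 10.6% called lower and 6.43% higher. For the interaction, 1 (Apol6) was higher, beside 0.708% called higher and 0.312% lower. DESeq2 called 3 of the 5 for IFN in knockout cells and 3 for the knockout with IFN, and as many as edgeR in the other comparisons. The genes were chosen on these comparisons, so the counts describe the choice and support nothing further. The comparisons share libraries: IFN in knockout cells and the untreated knockout comparison both use the untreated knockout libraries, for example.

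Apol10b, a family member that was not among the 5, was the gene of the cluster whose levels were most like those of Ubd. It had 15.5, 16.8 and 15.4 TPM in knockout cells with IFN and 3.39, 4.28 and 4.6 TPM in untreated knockout cells, against 17.2, 18.3 and 16.5 TPM in WT cells with IFN and 4.19, 4.36 and 3.88 TPM in untreated WT cells. Apol10b rose with IFN by a log2 fold change of 2.0 ± 0.12 in knockout cells (edgeR adjusted p = 1.95e-07) and 2.09 ± 0.12 in WT cells (adjusted p = 3.24e-07). Knockout over WT gave -0.14 ± 0.11 with IFN (adjusted p = 0.478) and -0.04 ± 0.12 without IFN (adjusted p = 0.855), which did not pass. The difference between its IFN effects, -0.10 ± 0.16, did not pass either (adjusted p = 0.841).

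Of the 10 other Apol and Apold1 genes in the tables, 5 were tested: Apol7a, Apol7d, Apol7e, Apol10b and Apold1. Apol7d and Apold1 lie outside the cluster, on chromosomes 1 and 6. Apol7d is annotated as antisense with no coding transcript, and 14% of its exonic bases overlap Fn1 on the opposite strand. Both enter the counts and medians below. With IFN 1 rose in knockout cells and 2 rose in WT cells; in knockout against WT cells 2 fell with IFN and 0 passed edgeR in either direction without it, where 2 had an unadjusted p under 0.05 and DESeq2 called 0. Beside these counts, 5.47% of all genes were called higher with IFN in knockout cells and 4.66% in WT cells. In knockout against WT cells 10.6% were called lower with IFN, and 10.6% lower and 6.43% higher without it. Apol10b was the riser in knockout cells. The 2 risers in WT cells were Apol10b and Apol7e, and the 2 that fell were Apol7a and Apol7e; Apol7e reached the minimum count only in WT cells with IFN, so the filter itself selected for its difference and its calls are no support. Leaving out replicate 3 of the untreated WT cells gave 1 call for the knockout without IFN. For the interaction 0 passed edgeR, 0 had an unadjusted p under 0.05 and DESeq2 called 0. Their median log2 fold changes, Apol7e included, were -0.06 and 0.27 for IFN in knockout and in WT cells, and -0.47 and -0.04 for the knockout with and without IFN, beside medians of all genes between -0.01 and 0.

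Apol7e had 3, 6 and 2 counts in knockout cells with IFN and 0, 1 and 0 in untreated knockout cells, against 21, 20 and 18 in WT cells with IFN and 2, 7 and 0 in untreated WT cells. Because it passed the filter only through the WT libraries with IFN, its log2 fold changes of 2.76 ± 0.69 for IFN in WT cells and -2.68 ± 0.67 for knockout over WT cells with IFN are given as a description, with no test. Of its exonic bases, 13.4% overlap a gene on the opposite strand. Apol7a had 7.56 ± 1.66 TPM in knockout cells with IFN and 14.1 ± 5.06 TPM in WT cells with IFN (log2 fold change -0.94 ± 0.25, edgeR adjusted p = 0.0218); the call was lost without replicate 2 or 3 of the knockout or 1 or 3 of the WT cells with IFN (adjusted p 0.0723 to 0.0947).

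The 5 untested genes were at or near 0. Apol7b had 2, 1, 25 and 4 counts summed over the knockout cells with IFN, untreated knockout, WT cells with IFN and untreated WT libraries, Apol11b had 18, 2, 18 and 3, and Apol10a had 2 counts, all in WT cells with IFN. Apol7c and Apol11a had 0 counts in every library. Together Apol9a and Apol9b made up 87.6% to 90.4% of the TPM of the chromosome 15 Apol genes in knockout cells with IFN, 96.2% to 96.4% in untreated knockout cells, 93.9% to 94.4% in WT cells with IFN and 98.2% to 98.4% in untreated WT cells. The Apol7c and Apol7e windows thus hold 3 half-sites in a row as those of Apol9a and Apol9b do, while their genes had 0 and at most 21 counts in a library.

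Genes on either side of each member were examined to see whether neighbours moved with it. Most flank the Apol cluster, but Olfr91 to Olfr96 flank Ubd on chromosome 17. Of 14 neighbouring protein-coding genes in the tables, 7 were tested. Olfr91, the only tested neighbour of Ubd, passed in no comparison but enters the counts and medians below. With IFN 1 rose and 1 fell in knockout cells and 1 rose in WT cells, and in knockout against WT cells 1 fell with IFN. Of all genes, 5.47% were called higher and 7.28% lower with IFN in knockout cells, 4.66% higher with IFN in WT cells and 10.6% lower in knockout against WT cells with IFN. The median log2 fold changes of the 7 genes were 0.10 and 0.09 for IFN in knockout and in WT cells, and 0.05 and 0.06 for the knockout with and without IFN, beside medians of all genes between -0.01 and 0. Without IFN 0 passed edgeR, 2 had an unadjusted p under 0.05 and DESeq2 called 0, and leaving out replicate 1 of the knockout cells with IFN, which enters through the shared spread, gave 1 call. The gene 1110038F14Rik, which lies on the Apol6 side, rose with IFN in knockout cells (53.4 ± 2.48 CPM with IFN and 32.1 ± 4.94 CPM without, log2 fold change 0.73 ± 0.11, edgeR adjusted p = 0.000706) and in WT cells (0.75 ± 0.11, adjusted p = 0.00105). Foxred2, beyond Apol8, had 1.4 ± 0.158 CPM in knockout cells with IFN and 2.94 ± 0.215 CPM in WT cells with IFN (log2 fold change -1.07 ± 0.18, adjusted p = 0.0012). It also fell with IFN in knockout cells (-0.70 ± 0.18, adjusted p = 0.0221), a call lost without replicate 3 of the untreated knockout cells or replicate 1 or 2 of those with IFN (adjusted p 0.0727 to 0.101). Myh9, the next gene beyond Apol8, did not pass in any comparison (knockout over WT without IFN 0.05 ± 0.07). Rbfox2, which separates Apol6 from Apol9a, did not pass either, but its errors were wide. Its knockout over WT value was -0.57 ± 0.44 with IFN (edgeR adjusted p = 0.467) and -1.17 ± 0.45 without IFN (adjusted p = 0.108). Untreated knockout libraries held 86.7 to 109 CPM of Rbfox2 and untreated WT libraries 132 to 255 CPM, without overlap.

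The machinery of FAT10 conjugation and recognition was followed beside Ubd. All 11 genes of the list were tested. With IFN 1 rose in knockout cells and 1 rose in WT cells. In knockout against WT cells 1 rose and 2 fell with IFN, and 1 rose and 1 fell without it. Beside these, 5.47% of all genes were called higher with IFN in knockout cells and 4.66% in WT cells. In knockout against WT cells 5.11% were called higher and 10.6% lower with IFN, and 6.43% higher and 10.6% lower without it. Their median log2 fold changes were -0.13 and 0.03 for IFN in knockout and in WT cells, and -0.05 and 0.01 for the knockout with and without IFN, beside medians of all genes between -0.01 and 0. Uba6, which encodes the activating enzyme of FAT10, and Ube2z, its conjugating enzyme, did not pass in any comparison: with IFN their log2 fold changes were 0.07 ± 0.15 and 0.02 ± 0.09 in knockout cells and -0.18 ± 0.15 and 0.08 ± 0.10 in WT cells. Psmd2, Psmd4, Vcp, Mad2l1, Birc6 and Aipl1 did not pass either.

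Nub1, whose product binds FAT10 and speeds its degradation, had 211 ± 3.04 CPM in knockout cells with IFN and 115 ± 6.32 CPM in knockout cells without IFN, against 249 ± 17.7 CPM in WT cells with IFN and 174 ± 2.82 CPM in untreated WT cells. Nub1 rose with IFN by 0.88 ± 0.07 in knockout cells (edgeR adjusted p = 4.89e-06) and 0.52 ± 0.07 in WT cells (adjusted p = 0.00072), and it was lower in untreated knockout than WT cells (log2 fold change -0.60 ± 0.07, adjusted p = 9.21e-05). The difference between its IFN effects, 0.36 ± 0.10, did not pass (adjusted p = 0.176). Nub1 thus differed between untreated genotypes, where the Ubd libraries overlapped.

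Hdac6, whose product can carry FAT10 to aggresomes, had 21.5 ± 3.66 CPM in untreated knockout cells and 14.7 ± 1.41 CPM in untreated WT cells (log2 fold change 0.55 ± 0.12, edgeR adjusted p = 0.00843). The call was lost when only these 2 groups were fitted (adjusted p = 0.0698). With IFN the calls of Hdac6 (0.40 ± 0.12, adjusted p = 0.043), Nub1 (-0.24 ± 0.07, adjusted p = 0.0395) and Sqstm1 (-0.83 ± 0.23, adjusted p = 0.029), which encodes the autophagy receptor p62, were lost under 10, 10 and 7 of 17 alternatives. Single libraries decided them: without any 1 of the 3 knockout libraries with IFN, or without replicate 2 of the WT cells with IFN, edgeR called 0 of the 11 genes. Without replicate 2 of the untreated WT cells the list held 3 calls for IFN in knockout cells, 2 for IFN in WT cells, and in knockout against WT cells 5 with IFN and 4 without.

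Factors that act on the ISRE and GAS were compared with the members. Of 12 interferon receptor, kinase and transcription factor genes, 6 rose with IFN in knockout cells and 4 in WT cells. In knockout against WT cells 5 were lower with IFN and 8 without it, and 3 had a larger IFN effect in knockout cells. Beside these, 5.47% of all genes were called higher with IFN in knockout cells and 4.66% in WT cells. The share called lower in knockout cells was 10.6% with and without IFN, and that higher for the interaction 0.708%. The list was chosen with earlier results of these data known, so its counts and p-values describe the choice and are no separate support. DESeq2 called 7 of the 12 genes for IFN in knockout cells, 7 for the knockout with IFN and 4 for the interaction. For the other comparisons its counts equalled those of edgeR. Their median log2 fold changes were 0.45 and 0.25 for IFN in knockout and in WT cells, -0.32 and -0.46 for the knockout with and without IFN, and 0.13 for the interaction, beside medians of all genes between -0.02 and 0. The count of 5 fell to 3 without any 1 of the knockout libraries with IFN or without replicate 2 of the WT cells with IFN, and the count of 4 for IFN in WT cells fell to 2 with only these groups fitted.

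Stat2 and Irf9, whose products are parts of the ISRE-binding complex ISGF3, were lower in knockout cells throughout. Stat2 had 106 ± 4.21 CPM in knockout cells with IFN and 38.6 ± 0.385 CPM in knockout cells without IFN, against 239 ± 5.7 CPM in WT cells with IFN and 186 ± 5.52 CPM in untreated WT cells. The log2 fold change in knockout over WT cells was -1.18 ± 0.06 with IFN (edgeR adjusted p = 9.95e-08) and -2.27 ± 0.07 without (adjusted p = 2.85e-10). Irf9 had 69.9 ± 1.46 CPM in knockout cells with IFN and 48.2 ± 2.28 CPM in knockout cells without IFN, against 101 ± 5.8 CPM in WT cells with IFN and 92.6 ± 4.01 CPM in untreated WT cells. For Irf9 it was -0.53 ± 0.07 with IFN (adjusted p = 0.000347) and -0.94 ± 0.08 without (adjusted p = 2.07e-06).

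Irf1 and Irf8 were lower in untreated knockout cells and did not pass the test between genotypes with IFN. Irf1 had 341 ± 1.74 CPM in knockout cells with IFN and 37 ± 2.48 CPM in knockout cells without IFN, against 296 ± 16.9 CPM in WT cells with IFN and 65.2 ± 1.8 CPM in untreated WT cells. Knockout over WT gave 0.20 ± 0.07 for Irf1 with IFN (edgeR adjusted p = 0.0828) and -0.82 ± 0.07 without IFN (adjusted p = 6.58e-06). For Irf8 the value was 0.04 ± 0.12 with IFN (adjusted p = 0.877) and -0.89 ± 0.14 in untreated cells (adjusted p = 0.000999).

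**Figure D5:**
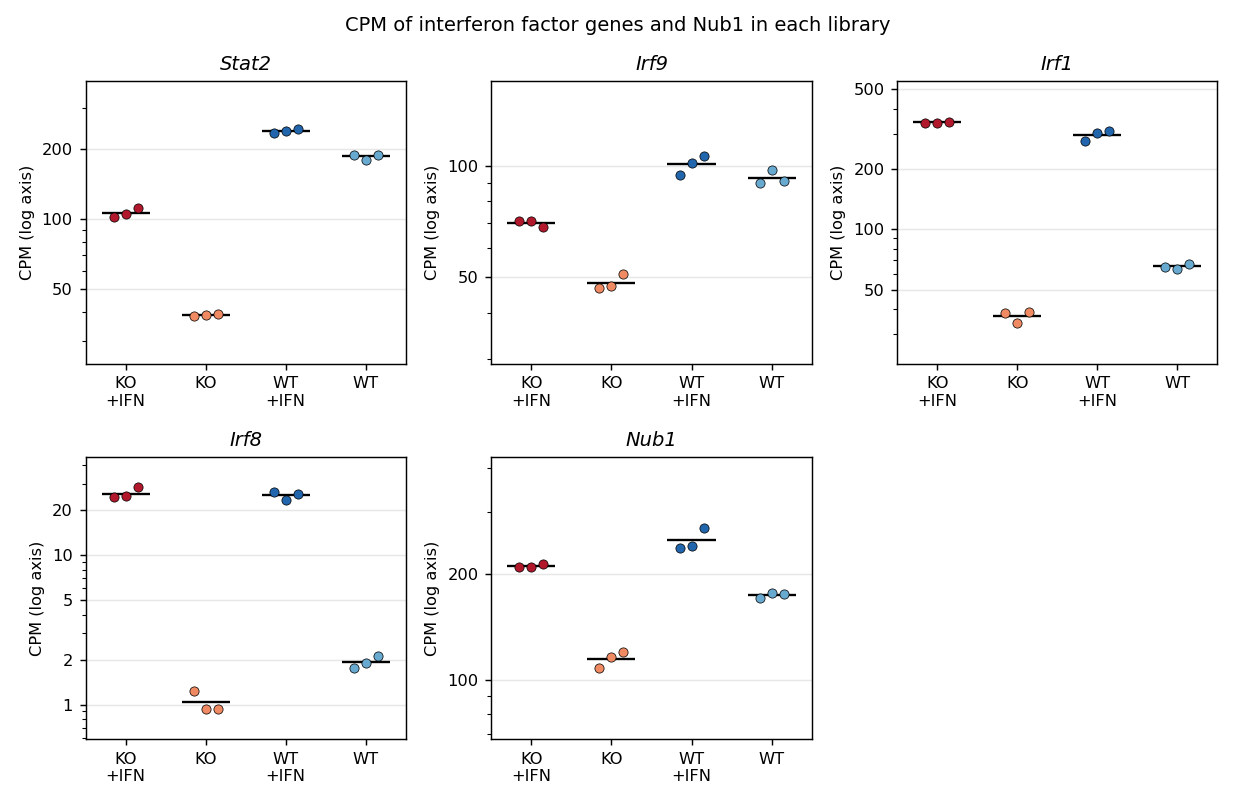
CPM on log axes of Stat2, Irf9, Irf1, Irf8 and Nub1 in each library (points) with group means (bars, n = 3); KO is the Smarcd1 knockout. In each panel the untreated knockout libraries lie lowest, and Stat2 and Irf9 stay lower in knockout than WT libraries with IFN.

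As a description, log2 CPM was correlated across the 12 libraries, which share 4 group means, so that the values mostly compare patterns over groups. Ubd followed Irf8 (Pearson r = 0.98) and Irf1 (0.97), and Apol6 followed Irf1 (0.96) and Irf8 (0.95). Apol9b followed Irf9 (0.92) and Stat2 (0.91), and its r with Irf1 was 0.22. The split was not clean: Apol6 also had an r of 0.77 with Stat2 and 0.72 with Irf9. Apol9b had 0.88 with Ifnar1 and 0.86 with Ifnar2. Apol6 and Ubd had an r of 0.89, Apol9a and Ubd 0.09, and Apol8 and Apol9a 0.79.

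Among about 10810 named genes with a mean of at least 2 CPM, the 5 with the highest r to each member were listed. For Apol9a they were Apol9b (0.998), the RIG-I-like receptor gene Dhx58 (0.996), Ifit1 (0.992), Rsad2 (0.990) and Trim34a (0.989), and for Apol9b they were Apol9a, Dhx58, Ifit3b, Ifit1 and Hap1. Rsad2, which encodes the antiviral protein viperin, averaged 4.44 CPM in knockout cells with IFN and 2.58 CPM in knockout cells without IFN, against 133 CPM in WT cells with IFN and 120 CPM in untreated WT cells. For Apol6 the 5 were Batf2 (0.986), Nlrc5 (0.986), Gbp2 (0.983), Tap1 (0.983) and Tapbpl (0.982), of which Nlrc5, Tap1 and Tapbpl act in MHC class I presentation.

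For Ubd the most alike genes were Serpina3f (0.995), Hbegf (0.994), Apol10b (0.993), Prl2c3 (0.992) and Tfrc (0.986). Tfrc, which encodes the transferrin receptor, averaged 330 CPM in knockout cells with IFN and 145 CPM in knockout cells without IFN, against 334 CPM in WT cells with IFN and 130 CPM in untreated WT cells. For Apol8 they were Tcf25 (0.948), Wnk4, Prkcsh, Grap and Mrgbp (0.925). For these 5 the deviations of single libraries from their group means had an r with those of Apol8 from 0.77 to 0.89. For the 5 of Apol6 that r ran from -0.61 to 0.34. Each set was chosen by r over these same libraries, so the deviations are no separate support for the likeness.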

How the data were processed

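Poly-A RNA of 12 MC38 samples was sequenced. The authors deposited whole-number counts per gene and TPM for the same libraries and 51826 genes. CASAVA, Trimmomatic 0.36, FastQC 0.11.2, HISAT2 2.1.0 and build GRCm38 are named, per the submitters' processing notes. How reads were counted, with which strand setting and annotation release, and how reads that fit several genes were treated, is not given in the sources used here. Counts of 4, 6 and 8 outnumbered their odd neighbours 1.386 to 1.649 times, so both mates of a pair may be counted. From the deposited counts, edgeR 4.0.16 in R 4.3.3 was run with filterByExpr (minimum count 10, minimum total 15), TMM and a quasi-likelihood fit with 1 mean per group over 12 libraries (8 residual degrees of freedom). There were 5 contrasts, each adjusted by Benjamini-Hochberg over 16676 genes with a threshold of 0.05. The standard error of a log2 fold change is its size divided by the square root of F. Alternatives were DESeq2 1.42.0 (size factors, Wald test), no filter, only the 2 groups compared, a replicate block, leaving out each library, limma 3.58.1 on log2 of the deposited TPM plus 1 or 0.1, and grouping by characteristics. The fit was tested on simulated counts. The ratios of Apol9a to Apol9b counts were compared between groups by permutation of libraries. Positions came from GENCODE M21, which held 51633 of the identifiers, and promoters from RefSeq (GRCm38.p6). Named genes were the members, every other Apol gene and Apold1, lists of the FAT10 pathway and of interferon factors, the 3 protein-coding genes on each side of a member, and the 5 genes most correlated with each. Genes that are not reported here were left out of the lists and their counts. The members and lists were chosen with earlier results of these data known.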

Additional observations from a re-analysis of the deposited data

Results flagged for a closer look

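The fitted effect of IFN differed between the genotypes for 4 genes examined here, all of them chosen with earlier results of these data known. On the log2 scale it was larger in knockout than in WT cells by 2.50 for Apol6, as a description with no test, and by 1.09 for Stat2 (edgeR adjusted p = 2.13e-05), 1.02 for Irf1 (adjusted p = 0.00015) and 0.93 for Irf8 (adjusted p = 0.0315). The call of Irf8 was lost under 10 of 16 alternatives, among them the omission of any 1 library with IFN, of replicate 2 or 3 of the untreated knockout cells or of replicate 3 of the untreated WT cells (adjusted p 0.059 to 0.0964 over these). Those of Stat2 and Irf1 held under all 16. For each of these genes the untreated knockout level was the lowest of the 4 groups.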

How the results depend on the processing

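Fold changes of the 5 genes moved most on the scale of limma with log2(TPM + 1), with or without the filter, which compresses low levels: Apol6 gave 4.42 for IFN in knockout cells, -1.71 for knockout without IFN and 1.04 for the interaction, Apol8 gave -0.35 for knockout with IFN, and Ubd gave 2.68 for IFN in knockout cells and 2.72 for IFN in wild-type cells. Counts of all genes called moved by over 1.5 times in a few cases. With only the 2 groups compared, 648 genes were called for IFN in wild-type cells and 1494 for knockout without IFN. The DESeq2 Wald test called 357 for the interaction of knockout and IFN, against 170 with edgeR. Leaving out 1 library gave 1349 to 3007 for IFN in knockout cells, 883 to 1825 for IFN in wild-type cells and 1726 to 3454 for knockout with IFN; the cause was not tested. Grouping by characteristics reversed the level of Smarcd1 by group, to 0.22 for knockout with IFN and 0.18 for knockout without IFN. Replicate numbers did not pair the libraries: same-numbered libraries deviated with r from -0.323 to 0.168, over 0.1 in 3 of 18 pairs. A replicate block called 1869, 1282, 2333, 2522 and 143 genes for IFN in knockout cells, IFN in wild-type cells, knockout with IFN, knockout without IFN and the interaction of knockout and IFN, and it left 1 of the 3 calls in the FAT10 list for knockout with IFN. Low counts limit Apol8, untreated Ubd and Apol6 in untreated knockout cells.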
